A study of Mus musculus with 6 samples.

Results

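The EGF family ligands amphiregulin (Areg), epiregulin (Ereg), heparin-binding EGF-like growth factor (Hbegf), transforming growth factor alpha (Tgfa), betacellulin (Btc) and neuregulin 1 (Nrg1) were examined together with the ERBB receptors Egfr, Erbb2 and Erbb3. These 9 genes were taken by symbol from 14228 genes with deposited counts, and all 9 were listed. RNA 3′ ends had been counted in 6 libraries of mouse stomach fibroblasts sorted as live, podoplanin-positive cells lacking CD31, CD45 and EpCAM. Mice of both groups carried the triple-transgenic iLgr5;GLI2A strain, a gastric cancer model in which an activated GLI2 is induced in Lgr5-expressing cells, and were 8 weeks old at treatment. Mice giving cancer-associated fibroblasts (CAF, n = 3 libraries of 1, 2 and 2 mice) received tamoxifen in corn oil by gavage for 5 days. They then ate doxycycline chow for 3 weeks, with doxycycline and sucrose in the water for the first 3 days. Mice giving normal fibroblasts (normal, n = 3 libraries of 1, 1 and 2 mice) received corn oil with neither drug, so that drug and cancer cannot be told apart.

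EGF family ligands are made as membrane-bound precursors that proteases of the ADAM family cut loose from the cell surface. Amphiregulin, transforming growth factor alpha, epiregulin, betacellulin and heparin-binding EGF-like growth factor bind the EGF receptor, and some also bind ERBB4. Neuregulin 1 binds ERBB3 and ERBB4. A bound receptor pairs with another ERBB receptor, with ERBB2 as a preferred partner that has no known ligand of its own, and ERBB3 signals mainly through such partners because its own kinase is weak. The pathway drives growth and repair of the gastric lining, and in tumours fibroblasts can be a source of its ligands.

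The libraries held 644522 to 6422568 counts in the CAF group and 768420 to 3259644 in the normal group. Levels are given as CPM, the usual per-million scaling of counts after TMM adjustment of library sizes, and 1 count was worth 0.135 to 1.46 CPM depending on the library. All 12 fibroblast markers had counts in 5 libraries and 11 of 12 in normal library 3, with summed levels of 9301 to 31110 CPM in CAF and 5274 to 13776 CPM in normal libraries. Epithelial transcripts were also present. The squamous forestomach markers summed to 2120, 3246 and 209 CPM in normal libraries 1, 2 and 3 and to 138 to 195 CPM in CAF libraries. Gastric chief cell markers summed to 192244, 123523 and 12495 CPM in normal libraries 1, 2 and 3 and to 1102 to 3860 CPM in CAF libraries. Gastric pit and neck markers summed to 57037, 44634 and 27120 CPM in normal libraries 1, 2 and 3. In CAF libraries they summed to 1615 to 5936 CPM. The summed general epithelial markers overlapped between the groups, at 1706 to 4104 CPM in CAF and 1117 to 5329 CPM in normal libraries, but single markers differed. Of these 12 markers, 4 were higher in every CAF library than in any normal library (Krt7, Cldn3, Cldn4 and Cldn7), 1 was lower and 7 overlapped. Epcam itself, a sort marker, was at 114 to 233 CPM in CAF and 13.8 to 150 CPM in normal libraries, and Pdpn, which encodes podoplanin, at 27.8 to 121 and 5.71 to 34.2 CPM. Ptprc (CD45) and Pecam1 (CD31) did not exceed 5.52 and 9.39 CPM in any library. The 6 immune markers with counts summed to 42.4, 561 and 150 CPM in CAF libraries 1, 2 and 3, against 46.9, 346 and 35.02 CPM in the normal ones, mostly from S100a8 and Lyz2.

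Ereg, Areg and Btc are neighbours on mouse chromosome 5 (mm10). Ereg runs from 91074622 to 91093646, Areg from 91139599 to 91148432, and Btc, on the opposite strand, from 91357261 to 91402994. Ereg and Areg lie 46.0 kb apart with no protein-coding gene between them in the GENCODE annotation, and Areg and Btc lie 208.8 kb apart. A promoter sequence was matched for 5 of the 9 genes. That of Areg is shown because Areg was the ligand with the highest counts in the CAF libraries, and it covers the 250 bases before the gene's start (RefSeq, GRCm38.p6, plus strand, chr5:91139349-91139598), with capitals for the motifs found.
Areg promoter: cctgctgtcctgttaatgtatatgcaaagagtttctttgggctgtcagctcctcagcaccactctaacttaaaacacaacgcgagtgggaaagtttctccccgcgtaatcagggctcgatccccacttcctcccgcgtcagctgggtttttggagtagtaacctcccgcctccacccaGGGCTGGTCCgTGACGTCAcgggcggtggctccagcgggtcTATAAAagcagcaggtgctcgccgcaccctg
The first capitals, at positions -72 to -63 from the start, match an NF-kB pattern (GGG, any 5 bases, then CC), which 45.8% of 32851 mouse promoter windows of the same length hold on either strand. The next run, at -61 to -54, is the palindromic cAMP response element TGACGTCA, held by 1.55% of the windows, and the last, at -31 to -26, is the TATA box TATAAA, held by 12.4%. The AP-1 pattern TGANTCA (6.75% of windows) and the TEAD pattern GGAATG (12.6%) were searched on both strands too, and neither is in this window. None of the Areg matches overlap each other. The cAMP response element was found in none of the other matched promoters (Tgfa, Btc, Egfr and Erbb2).

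Areg, the epithelial growth factor amphiregulin, was higher in each CAF library than in any normal library, without passing the test across all genes. Its level was 161, 124 and 88.9 CPM in CAF libraries 1, 2 and 3, from 110, 899 and 657 counts. It was 76.3, 36.7 and 6.25 CPM in normal libraries 1, 2 and 3, from 187, 29 and 5 counts. The normal libraries spread over a 12.2-fold range and the CAF libraries over a 1.81-fold range, and the gap between the groups, 88.9 against 76.3 CPM, was narrow. The 95% Poisson intervals of CAF library 3 (82.2 to 95.9 CPM) and normal library 1 (65.8 to 88.1 CPM) overlapped. Group means were 125 ± 36.0 CPM (CAF) and 39.8 ± 35.1 CPM (normal), each ± SD with n = 3. The fitted difference was 3.02-fold (95% interval 0.968 to 9.42; log2 fold change 1.59 ± 0.71 SE; edgeR adjusted p = 0.341). Areg was the only tested member whose groups did not overlap, where groups did not overlap for 19.9% of all genes tested (10.6% with CAF higher and 9.35% with CAF lower). Against normal library 3 alone, which held the least squamous and chief cell RNA of the normal group, the CAF mean was 19.9-fold higher, though that library gave only 5 Areg counts. Normal library 3 still held more chief cell RNA than any CAF library. It also held more pit and neck RNA, at 27120 CPM against 1615 to 5936 CPM in CAF. Without normal library 1 the difference was 5.61-fold, and without normal library 3 it was 2.04-fold (edgeR adjusted p = 0.374 and 0.201). Krt7 and Cldn4, from the 12 general epithelial markers, had the same order of libraries as Areg, and the others did not. Krt7, a simple epithelial keratin, was at 966, 349 and 291 CPM in CAF libraries 1, 2 and 3, against 69.4, 49.4 and 3.75 CPM in the normal ones. Cldn4, a tight-junction protein gene, was at 135, 42.9 and 31.4 CPM in CAF, against 25.7, 11.4 and 1.25 CPM in normal libraries. Krt19 went the other way, at 151 to 155 CPM in CAF and 434 to 986 CPM in normal libraries. Krt8, Krt18, Cdh1, Elf3 and Esrp1 were each highest in a normal library. The part of epithelial RNA in the Areg difference was not tested.

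**Figure D1:**
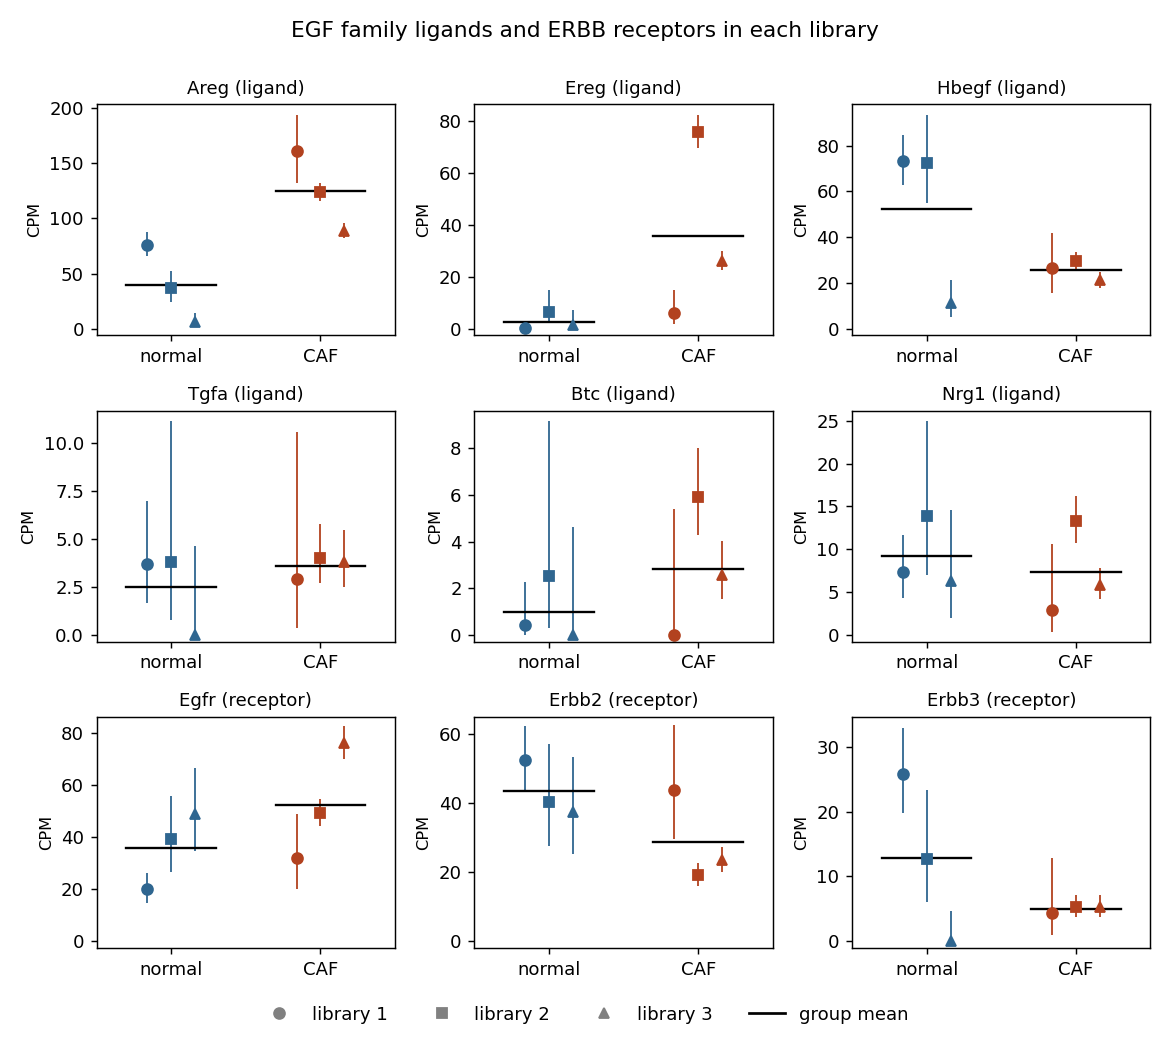
Level in CPM (vertical axes, linear, differing between panels) of each ligand and receptor in the 3 normal and 3 CAF libraries. Symbols mark the library, vertical bars the exact 95% Poisson interval of its count (counting error only) and black lines the group means; Areg is the panel in which all CAF points lie above all normal points.

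Ereg, which encodes epiregulin, had the largest fold difference of the 7 tested members and a wide spread. It was at 5.85, 75.5 and 25.97 CPM in CAF libraries 1, 2 and 3, and at 0.408, 6.33 and 1.25 CPM in normal libraries 1, 2 and 3. CAF libraries 2 and 3 stood far above the normal libraries, while CAF library 1, at 4 counts (95% Poisson interval 1.59 to 15.0 CPM), lay within the normal range. The normal libraries had only 1, 5 and 1 counts. The immune marker S100a8, a neutrophil gene, was also highest in CAF library 2 and, among normal libraries, in normal library 2. It was at 13.2, 401 and 63.2 CPM in CAF libraries 1, 2 and 3 and 4.08, 124 and 16.3 CPM in the normal ones. Ptprc and Itgam were likewise highest in CAF library 2. Lyz2, Cd68 and Csf1r were each highest in normal library 2 instead, at 170, 29.1 and 13.9 CPM. All 6 immune markers overlapped between the groups. The part of immune cell RNA in the Ereg difference was not tested. Means were 35.8 ± 35.8 CPM (CAF) and 2.66 ± 3.21 CPM (normal), each ± SD with n = 3, a 17.3-fold difference (95% interval 2.64 to 114). The log2 fold change of 4.12 ± 1.17 (SE) did not pass over all genes tested (edgeR adjusted p = 0.135). The difference was 9.53-fold without normal library 1, 54.2-fold without normal library 2 and 24.6-fold without CAF library 1, with no call. In the authors' deposited table the log2 fold change of Ereg is 3.88 with an adjusted p of 0.0163, a call at 0.05 that 6.37% of the genes in that table share. DESeq2 run on the same counts also called Ereg (log2 fold change 3.88, adjusted p = 0.0147), so the call depends on the test. An antisense gene overlaps exons of Ereg in GENCODE, and whether strand was used in counting is not given in the sources used here.

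Hbegf, the heparin-binding ligand of Egfr, pointed the other way in 2 of the 3 normal libraries. It was at 26.3, 29.4 and 21.1 CPM in CAF libraries 1, 2 and 3, a 1.39-fold range. In normal libraries 1, 2 and 3 it was at 73.0, 72.2 and 11.3 CPM. Normal libraries 1 and 2 thus lay above every CAF library and normal library 3 below every one. Means were 25.6 ± 4.20 CPM (CAF) and 52.2 ± 35.4 CPM (normal), each ± SD with n = 3, a log2 fold change of -1.04 ± 0.62 (SE; edgeR adjusted p = 0.503). Without normal library 3 Hbegf was called lower in CAF (log2 fold change -1.57, edgeR adjusted p = 0.0237), and without normal libraries 1 and 2 its log2 fold change was 1.24 (adjusted p = 0.496). The summed squamous markers were lower in normal library 3 (209 CPM) than in normal libraries 1 and 2 (2120 and 3246 CPM). So were the summed parietal cell markers, at 547 against 14268 and 18683 CPM. Krt5, a keratin of basal squamous cells, was at 707, 778 and 48.8 CPM in normal libraries 1, 2 and 3, and at 7.44 to 16.1 CPM in CAF. Of the 14 squamous markers counted, 6 did not overlap, with CAF lower, and 8 overlapped. Sbsn, of these 8, was at 30.6, 50.7 and 37.5 CPM in normal libraries 1, 2 and 3 and 62.9, 48.3 and 87.9 CPM in CAF libraries 1, 2 and 3. The part of epithelial RNA in the Hbegf difference was not tested. In these bulk samples, fewer cells of a type and less RNA per cell cannot be told apart.

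**Figure D2:**
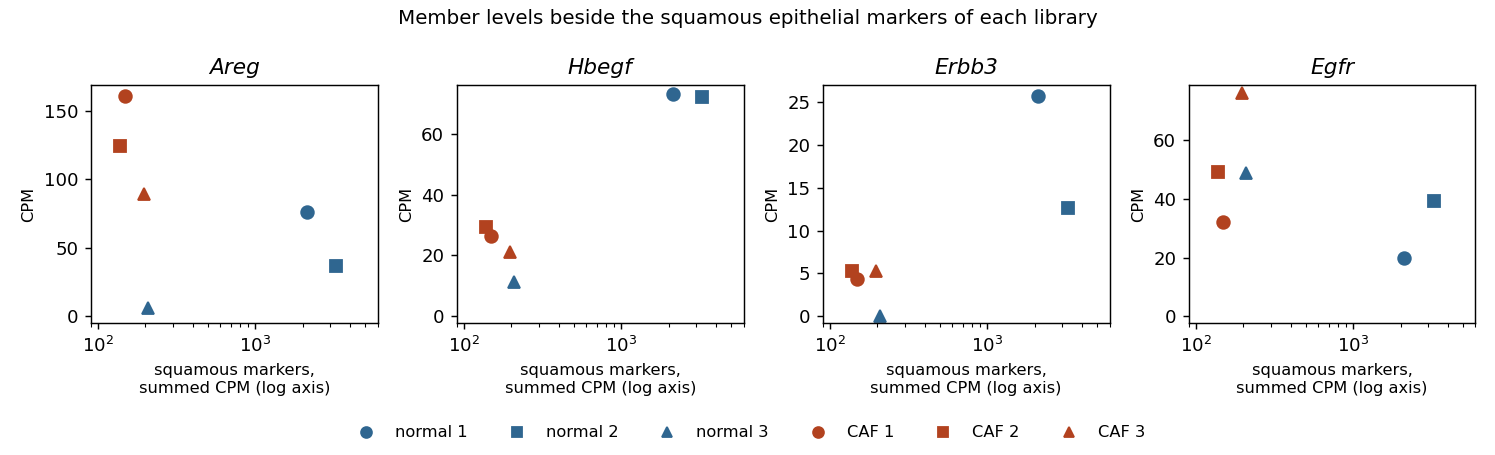
Level in CPM of Areg, Hbegf, Erbb3 and Egfr (vertical axes, linear) against the summed CPM of the squamous forestomach markers in the same library (horizontal axes, log scale). Normal libraries 1 and 2 sit at the right with the highest Hbegf and Erbb3, while normal library 3 sits beside the CAF libraries on the horizontal axis. Gland cell markers, which also differed among the normal libraries, are not drawn.

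The share of Hbegf among the ligand counts did not overlap between the groups, although its level did. This comparison was chosen after the values were seen and carries no test. A share depends on how well the 3′ end of each gene is captured, so it was read across libraries and not across ligands. Hbegf made up 13.2%, 11.7% and 14.2% of the counts of the 6 ligands in CAF libraries 1, 2 and 3. Its share was 45.3%, 53.3% and 45.0% in normal libraries 1, 2 and 3. Normal library 3, which had the lowest Hbegf level of all, therefore had an Hbegf share close to that of normal library 1. The exact 95% binomial intervals (counting error only) reached 20.1% at most among CAF libraries and 23.1% at least among normal libraries, the latter for normal library 3 with only 20 ligand counts. Areg made up 80.9%, 49.2% and 60.0% in CAF libraries 1, 2 and 3, against 47.3%, 27.1% and 25.0% in the normal ones, so that the gap between the groups was small for Areg. Counted against each other, Areg had 6.11, 4.22 and 4.21 counts per Hbegf count in CAF libraries 1, 2 and 3. It had 1.04, 0.509 and 0.556 per Hbegf count in normal libraries 1, 2 and 3. The mean log2 ratio of Areg to Hbegf was 2.25 ± 0.31 in CAF and -0.59 ± 0.57 in normal libraries (SD, n = 3 each). Scaling of library sizes does not affect this 7.17-fold shift, but the part of cell make-up in it was not tested. Gastric chief cell markers summed to 192244, 123523 and 12495 CPM in normal libraries 1, 2 and 3, against 1102 to 3860 CPM in CAF libraries. How often the ratios of other gene pairs separate the groups was not counted. The 95% intervals of the single ratios were 3.53 to 10.7 over the CAF libraries and 0.146 to 1.85 over the normal libraries.

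**Figure D3:**
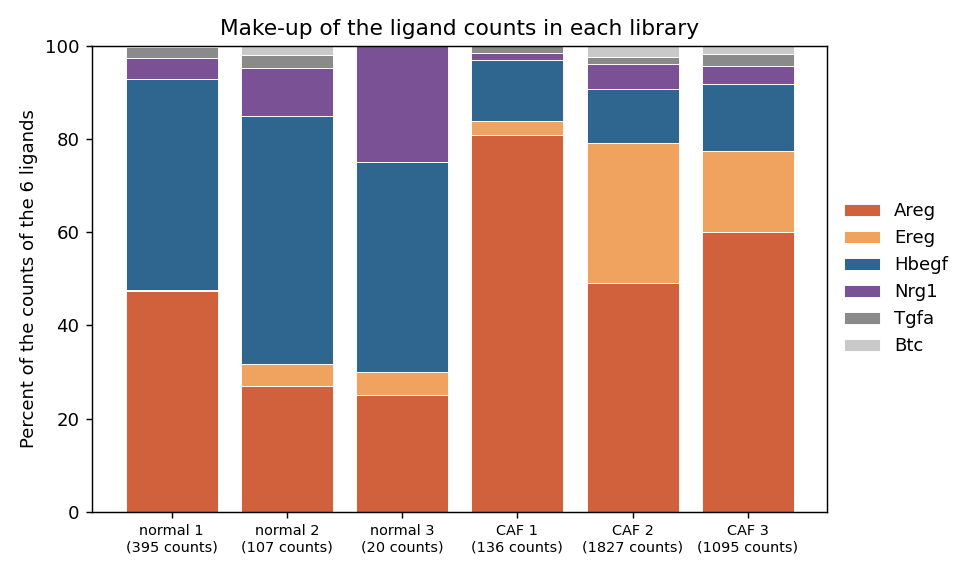
Percent of the summed counts of the 6 ligands (vertical axis) taken by each ligand in each library (horizontal axis, with the number of ligand counts). Hbegf takes 45.0% to 53.3% in the normal libraries and 11.7% to 14.2% in the CAF libraries, and Ereg is prominent only in CAF libraries 2 and 3.

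Ereg did not keep a fixed proportion to its neighbour Areg. There were 0.0364, 0.608 and 0.292 Ereg counts per Areg count in CAF libraries 1, 2 and 3, against 0.00535, 0.172 and 0.200 in the normal ones. CAF library 1 thus combined the highest Areg level of any library with an Ereg level like that of normal library 2. CAF library 1 also had the lowest fibroblast marker sum of the CAF group, at 9301 CPM, against 25933 and 31110 CPM in CAF libraries 2 and 3.

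Nrg1, the neuregulin that binds ERBB3 and ERBB4, had ranges that overlapped between the groups. It was at 2.93, 13.2 and 5.82 CPM in CAF libraries 1, 2 and 3 and at 7.34, 13.9 and 6.25 CPM in normal libraries 1, 2 and 3. The log2 fold change was -0.19 ± 0.65 (SE; 95% interval -1.69 to 1.32; edgeR adjusted p = 0.936), an interval that leaves room for a change of either sign. Tgfa and Btc fell below the filter on low counts. Tgfa, a ligand of Egfr made by gastric epithelium, had 2, 29 and 28 counts in CAF libraries 1, 2 and 3 (2.93, 4.002 and 3.79 CPM) and 9, 3 and 0 in normal libraries 1, 2 and 3 (3.67, 3.80 and 0 CPM). The 0 counts in normal library 3 allow up to 3.75 CPM (3 counts), so that no difference in Tgfa was detectable at this depth. Btc had 0, 43 and 19 counts in the CAF libraries (0, 5.93 and 2.57 CPM) and 1, 2 and 0 in the normal libraries (0.408, 2.53 and 0 CPM). Its pooled rate was 5.45 times as high in CAF (95% counting interval 1.78 to 27.1), an interval that leaves out the spread between libraries, and CAF library 1 had none. In the fit without a filter the log2 fold changes were 0.47 ± 0.84 for Tgfa and 2.04 ± 1.23 for Btc (SE; edgeR adjusted p = 0.84 and 0.464).

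Among the receptors, Egfr, which binds most of these ligands, was present in every library. Its level was 32.2, 49.3 and 76.1 CPM in CAF libraries 1, 2 and 3 and 20.0, 39.3 and 48.8 CPM in normal libraries 1, 2 and 3. The groups overlapped, and within each group the order of the libraries was that of their fibroblast marker sums (9301, 25933 and 31110 CPM in CAF, and 5274, 10448 and 13776 CPM in normal libraries); the part of these in the Egfr level was not tested. The means of 52.5 ± 22.2 and 36.0 ± 14.7 CPM (SD, n = 3 each) gave a 1.51-fold difference (95% interval 0.715 to 3.18; edgeR adjusted p = 0.63). Against normal library 3, whose squamous marker sum was closest to that of CAF, the CAF mean of Egfr was 1.08-fold higher.

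Erbb2, the co-receptor without a ligand, lay below the normal range in CAF libraries 2 and 3 and within it in CAF library 1. It was at 43.9, 19.2 and 23.5 CPM in CAF libraries 1, 2 and 3 and at 52.6, 40.5 and 37.5 CPM in normal libraries 1, 2 and 3. The groups thus overlapped, and the log2 fold change of -0.65 ± 0.41 did not pass (SE; 95% interval -1.60 to 0.29; edgeR adjusted p = 0.529). The 3′ ends of Erbb2 (chromosome 11, 98412470 to 98437716) and of Mien1 overlap on opposite strands, so reads there cannot be told apart without strand. Mien1, a small membrane-anchored protein gene, had a log2 fold change of -0.88 ± 0.28 (SE; edgeR adjusted p = 0.183), and the Erbb2 value is uncertain for that reason.

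Erbb3, the neuregulin receptor, had close levels in the CAF libraries and uneven levels in the normal libraries. It was at 4.39, 5.24 and 5.27 CPM in CAF libraries 1, 2 and 3, from 3, 38 and 39 counts. The 3 counts of CAF library 1 allow 0.905 to 12.8 CPM (95% Poisson interval), so its closeness to the others is uncertain. In normal libraries 1, 2 and 3 Erbb3 was at 25.7, 12.7 and 0 CPM, from 63, 10 and 0 counts. The normal libraries thus enclosed the CAF range, with the 2 libraries rich in squamous and chief cell markers above it and normal library 3 without a count. The log2 fold change was -1.42 ± 0.96 (SE; edgeR adjusted p = 0.565). Without normal library 3 it was -2.01 (edgeR adjusted p = 0.0525). The 0 counts in normal library 3 allow up to 3.75 CPM (3 counts), or 4.61 CPM at the exact 95% Poisson limit. The CAF mean was 4.97 CPM, so no difference from normal library 3 alone was shown at this depth. The part of epithelial RNA in the normal Erbb3 level was not tested. Schwann cells also carry ERBB3, and their list summed to 43.1 to 117 CPM in CAF and 3.67 to 7.60 CPM in normal libraries, mostly from S100b. Of the 7 markers in that list 3 were counted.

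The receptor mix was compared as the log2 ratio of Erbb2 or Erbb3 to Egfr within each library, with 0.5 counts added. For Erbb2 it was 0.44, -1.36 and -1.69 in CAF libraries 1, 2 and 3, against 1.39, 0.05 and -0.37 in the normal ones. The mean difference of -1.22 gave p = 0.3 in an exact two-sided permutation test over the libraries (adjusted p = 0.6 over the 2 ratios; 3 against 3 cannot go below 0.1). For Erbb3 it was -2.68, -3.22 and -3.83 in CAF and 0.36, -1.58 and -6.30 in normal libraries, a mean difference of -0.73 (exact permutation p = 0.8, adjusted p = 0.8). Neither ratio separated the groups.

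With p-values of the edgeR quasi-likelihood fit adjusted over 10148 genes (Benjamini-Hochberg), 0 of the 7 tested members were called at 0.05, where 1.1% of all genes tested (112) were called. At an unadjusted p under 0.05 the count was 1 of 7, Ereg, where 15.3% of all genes tested reached that level. DESeq2 called 1 member, Ereg (3.12% of all genes it tested were called higher), and limma-voom called 0. Fold changes were positive for Areg, Ereg and Egfr and negative for Hbegf, Nrg1, Erbb2 and Erbb3, with intervals that include 0 for each of the 7 except Ereg.

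**Figure D4:**
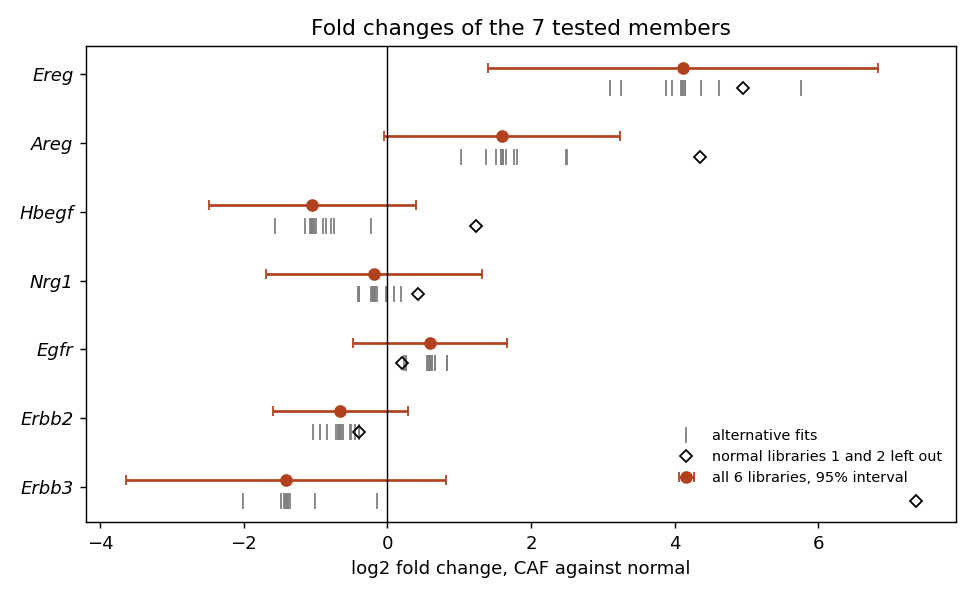
log2 fold change of CAF against normal (horizontal axis) for the 7 tested members. Orange points with bars are the edgeR values with 95% intervals, grey ticks the alternative fits and open diamonds the fit without normal libraries 1 and 2, in which Hbegf and Erbb3 lie on the other side of 0 (for Erbb3 against a library with 0 counts).

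Other genes of the pathway were taken from lists of ligand release, signal relay, receptor attenuation and feedback targets. Among 15 genes of ligand release, 14 had a positive fold change, as did 53.9% of all genes tested, and the median log2 fold change was 0.62, against 0.06 over all genes tested. The list mixes proteases with Timp3, an inhibitor of ADAM proteases (2.46-fold, edgeR adjusted p = 0.135). The number of positive signs therefore gives no direction for ligand release, which was not measured. The proteases Adam17 and Adam10 had log2 fold changes of 0.06 ± 0.34 and 1.40 ± 0.93 (SE; edgeR adjusted p = 0.96 and 0.558). Of these 15, 1 was called higher, Adam12, where 0.897% of all genes tested were called higher. Adam12, a membrane metalloprotease, was at 26.3, 54.5 and 75.2 CPM in CAF libraries 1, 2 and 3. It was at 0.816, 2.53 and 1.25 CPM in normal libraries 1, 2 and 3, from 2, 2 and 1 counts. The log2 fold change was 5.28 ± 0.66 (SE; edgeR adjusted p = 0.0201). The call was lost with limma-voom (adjusted p = 0.0622) and without CAF library 2 or 3 or normal library 1 or 2 (edgeR adjusted p = 0.0791, 0.0708, 0.156 and 0.082), at log2 fold changes of 4.76 to 5.74.

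Among 12 tested receptor attenuators 0 were called by edgeR, with 3 higher and 0 lower at an unadjusted p under 0.05, where 7.37% of all genes tested were higher and 7.97% lower at that level. Of the 12, 9 had a positive fold change, where 53.9% of all genes tested did, and the median was 0.29. Lrig3, a leucine-rich membrane protein listed beside Lrig1 and Lrig2, was the closest to a call, though its own effect on ERBB receptors was not measured. It was at 87.8, 70.2 and 59.6 CPM in CAF libraries 1, 2 and 3 and at 22.9, 26.6 and 21.3 CPM in normal libraries 1, 2 and 3. Its normal values were tight and its groups did not overlap, where 10.6% of all genes tested had no overlap with CAF higher. Its log2 fold change was 1.61 ± 0.31 (SE; edgeR adjusted p = 0.0608), and it was called by DESeq2 (adjusted p = 0.00166) and by edgeR without normal library 3 (adjusted p = 0.0337). Socs5, a suppressor of cytokine signalling that promotes EGF receptor breakdown, had a log2 fold change of 1.51 ± 0.45 (edgeR adjusted p = 0.153). Cbl, a ubiquitin ligase that marks activated EGF receptor for breakdown, had 1.41 ± 0.57 (edgeR adjusted p = 0.296). Errors are SE.

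Among 20 tested feedback and immediate targets 0 were called by edgeR, with 4 higher and 0 lower at an unadjusted p under 0.05 (7.37% and 7.97% of all genes tested), and the signs were mixed, with 9 positive and 11 negative fold changes and a median of -0.02. Ier3, an immediate early gene, was at 1604, 1226 and 764 CPM in CAF libraries 1, 2 and 3 and at 509, 341 and 281 CPM in normal libraries 1, 2 and 3 (log2 fold change 1.66, edgeR adjusted p = 0.0998). Spry4, a Sprouty inhibitor of the RAS-MAPK cascade, was at 54.1, 50.7 and 33.0 CPM in CAF and 6.53, 7.60 and 21.3 CPM in normal libraries (log2 fold change 2.01, edgeR adjusted p = 0.114). Etv4, an ETS transcription factor downstream of MAPK, was at 165, 58.9 and 34.4 CPM in CAF and 31.4, 20.3 and 6.25 CPM in normal libraries (log2 fold change 2.06, edgeR adjusted p = 0.229). The groups did not overlap for any of these 3 genes, where 10.6% of all genes tested had no overlap with CAF higher. Junb, of the same list, had no overlap with CAF lower, as did 9.35% of all genes tested. It was at 1073 to 1116 CPM in CAF and 1334 to 1761 CPM in normal libraries. Without CAF library 1 the difference in Etv4 was 2.31-fold in place of 4.18-fold. Without normal library 3 that in Spry4 was 6.22-fold in place of 4.02-fold and was called (edgeR adjusted p = 0.0149). DESeq2 called Ier3 and Spry4 (adjusted p = 0.00474 and 0.0174).

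Among 18 tested adaptor and relay genes 0 were called by edgeR, with 1 higher and 1 lower at an unadjusted p under 0.05 (7.37% and 7.97% of all genes tested), and the median was 0.02. Over all 4 lists DESeq2 called 5 of 69 genes higher and 0 lower, where it called 3.12% of 12835 genes higher and 4.17% lower, and limma-voom called 0 of 65. The 5 genes were Adam12, Timp3, Lrig3, Ier3 and Spry4, of which Timp3, an inhibitor of ADAM proteases, was named after its call was seen. Stat3, a transcription factor activated by receptors and cytokines, differed by 0.91 ± 0.36 on the log2 scale without passing, and Shc1, an adaptor, by 0.62 ± 0.30 (SE; edgeR adjusted p = 0.28 and 0.386).

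**Figure D5:**
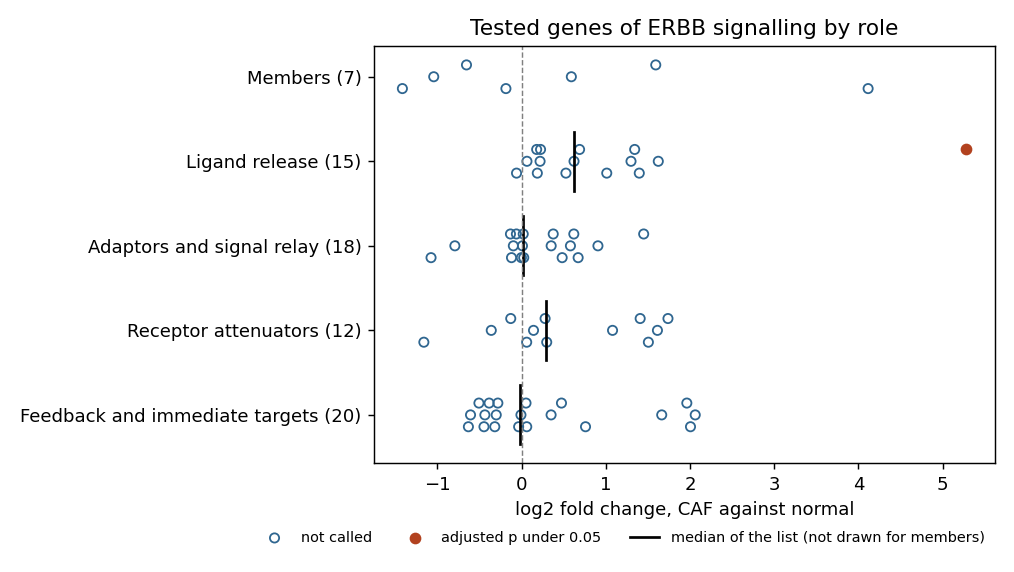
log2 fold change of CAF against normal (horizontal axis) for each tested gene of 5 groups, with the number tested in brackets. Open circles did not pass and the filled circle is Adam12; black lines are list medians, which lie at 0.62 for ligand release and between -0.02 and 0.29 for the other 3 lists.

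Of the family's other members, Egf and Epgn (epigen) were listed and below the filter. Egf, the founding ligand, had 1, 9 and 7 counts in CAF libraries 1, 2 and 3 (1.46, 1.24 and 0.947 CPM) and 29, 10 and 3 in normal libraries 1, 2 and 3 (11.8, 12.7 and 3.75 CPM). All normal levels lay above all CAF levels, as they did for 9.35% of all genes tested. Normal library 3 was the lowest of its group, at its 3-count floor of 3.75 CPM. The 3-count floor of CAF library 1 was 4.39 CPM, so the order of these libraries is uncertain at this depth. In the fit without a filter the log2 fold change of Egf was -3.00 ± 0.73 (SE; edgeR adjusted p = 0.0874). DESeq2 called Egf lower. Epgn had 10 counts over the CAF and 2 over the normal libraries, which are less deep. Its mean level was 0.458 CPM in CAF and 0.844 CPM in normal libraries, and the groups overlapped. Nrg2, Nrg3, Nrg4 and Erbb4 were not analysed here.

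Genes with the pattern most like a member's were named by Pearson correlation of log2 CPM over the 6 libraries among 9364 genes. The 5 nearest to Ereg were Zwint, Arpc5, Gabpb1, Psma2 and Arl3, with r from 0.985 to 0.995. The 5 nearest to Erbb2 were Cpsf1, Ercc2, Atg2a, Gorasp1 and Hemk1, with r from 0.982 to 0.989. None of these 10 genes was called (adjusted p from 0.21 to 0.81 by edgeR). With 6 points that share library depth and cell make-up, the highest of 9364 correlations is a description only.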

How the data were processed

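The authors deposited raw counts per gene symbol for 6 MARS-seq libraries, and these counts were the values tested. The build mm10 and the tools STAR, HTSeq, cutadapt and DESeq2, with no version, are listed in the submitters' processing notes. Not given in the sources used here were the annotation, the use of strand and any collapsing of molecular identifiers. Per the file headers, the deposited table also holds a normalized signal (count over 1 size factor per library) and regularized values on the log2 scale, neither used for a result. It also holds the authors' log2 fold changes, p-values and adjusted p-values. Every listed gene had at least 6 counts in some library.

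The test was edgeR 4.0.16 (R 4.3.3) with filterByExpr defaults, trimmed mean of M-values, quasi-likelihood F test on group, and Benjamini-Hochberg adjustment over 10148 genes at 0.05. Standard errors derive from the fold change and F statistic and are approximate. Alternatives were DESeq2 1.42.0, voom of limma 3.58.1, other scalings and filters, the number of mice as a covariate, removal of gene groups, and libraries left out. Code was tested on simulated data. No gene-set test was run. A count of 0 allows up to 3 counts; floors and 95% intervals of counts cover counting error only. Positions are from GENCODE M21 (mm10).

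The members and gene lists were chosen with earlier results of these data known. Named were all members, the called genes of each list or else the 3 of smallest p, and the 5 genes most correlated (mean count of at least 20) with the ligand and receptor of smallest p. Results for some genes that this rule names are not reported here. Titles give each library its own mouse or pair of mice.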

Additional observations from a re-analysis of the deposited data

How the results depend on the processing

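Areg, Ereg, Egfr and Erbb2 kept their direction in every fit in which they were tested, Areg with log2 fold changes of 1.03 to 4.35 and no call (adjusted p from 0.201 to 0.634 over 16 fits). Ereg ranged from 3.10 to 5.76 over 13 fits (adjusted p from 0.0147 to 0.509), and it fell below the filter without CAF library 2 or 3 and with at least 10 counts in 3 libraries. With 1 library left out, 0 members were called higher and 0 to 1 lower, the 1 being Hbegf without normal library 3; DESeq2 called 1 member higher. Without normal libraries 1 and 2 the log2 fold changes of Hbegf, Nrg1 and Erbb3 turned to 1.24, 0.42 and 7.36, the last a fitted value against 0 counts and no bound. That fit sets 3 CAF libraries against 1, whose spread is assumed to be like theirs, and in it the median of all genes moved by 0.23 on the log2 scale. Nrg1 ranged from -0.40 to 0.19 with 1 library left out, with positive values of 0.09 without CAF library 1 and 0.19 without normal library 2. With mice per library as a covariate Hbegf and Erbb3 were at -0.23 and -0.14, and Areg was at 2.51 without passing (edgeR adjusted p = 0.203).

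Over all genes, 91 were called higher and 21 lower. DESeq2 called 400 and 535, limma-voom 49 higher, the fit without a filter 40 lower, the filter of at least 10 counts in 3 libraries 12 lower, the covariate 8 lower, and the fit without normal libraries 1 and 2 called 0 and 0. With 1 library left out the counts ran from 0 to 412 higher and from 0 to 781 lower, the top values without normal library 3 and 0 of each without normal library 1. Of the pathway lists, Egf and Epgn included, 1 gene was called higher and 0 lower. DESeq2 called 5 and 1 (Egf), limma-voom 0 higher, the fit without normal libraries 1 and 2 called 0 higher, and fits without 1 library 0 to 4 higher and 0 to 2 lower. The causes were not tested. The difference in the Erbb3 to Egfr ratio was -1.01 with 1 count added and -0.01 with 0.1 counts added. No paired analysis was possible because the labels number no replicates across the groups. Depth limits Tgfa, Btc, Egf and the normal values of Ereg, each resting on 10 or fewer counts in most libraries.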
